A study of Mus musculus with 4 samples.

Results

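The genes described here are 33 genes of fatty acid oxidation and of the peroxisome proliferator-activated receptors (PPARs), out of 27734 gene names on the array, chosen by name. All 33 had at least 1 probe. They comprise 5 regulators, 4 PPAR target genes whose products work outside the oxidation spiral, 17 genes of mitochondrial oxidation, 6 genes of peroxisomal oxidation and 1 cytosolic acyl-CoA thioesterase. They were measured on 4 one-colour oligonucleotide arrays, with RNA of epithelial cells freshly taken from the small intestine of mice. In the IKKb(EE)IEC mice (2 samples), intestinal epithelial cells carry an active form of IKKb, a kinase that switches on the transcription factor NF-kB. Their wild-type (WT) littermates gave the other 2 samples. The sources used here do not give the promoter behind the transgene, the age, sex and strain of the mice or the number of mice per sample. The design text speaks of biological replicates, so the tests measure the spread between 2 samples of each genotype.

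Fatty acids are activated to acyl-CoA, carried into mitochondria by the carnitine shuttle and shortened there by repeated rounds of dehydrogenation, hydration, a second dehydrogenation and thiolysis. Peroxisomes run a separate form of this spiral for very long and branched chains. PPARs are nuclear receptors that bind fatty acids, pair with retinoid X receptors and raise the transcription of many of these genes, helped by coactivators of the PGC-1 family. In enterocytes, which absorb dietary fat, they link lipid supply to lipid handling.

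Values are log2 of the processed signal minus the array's 75th percentile, so 0 marks that percentile of the array and a difference of 1 is a 2-fold change. In IKKb(EE)IEC 40.8% and 41.1% of spots were well above background, against 34.3% and 36.0% in WT. The 75th percentile before the shift was 0.68 log2 units higher in IKKb(EE)IEC, so a gene with the same unshifted signal in both genotypes reads as -0.68. Every difference given here is relative to that scaling. All 9 markers of epithelium and absorptive enterocytes were well above background on every array. WT replicate 2 stood apart in markers of liver: 6 of 7 were well above background there, against 2 on each of the other arrays. Markers of macrophages and dendritic cells were well above background for 8 of 8 genes on both IKKb(EE)IEC arrays and for 3 and 2 on the WT arrays. The values are of bulk samples, in which fewer cells of a type and less RNA per cell cannot be told apart.

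In IKKb(EE)IEC, 4 of the 33 genes passed the test, all of them lower, and 0 passed as higher. They were Pdk4, Vnn1, Acaa2 and Decr2, with log2 differences of -2.73, -1.34, -0.86 and -0.68 (limma, adjusted p below 0.05 over 12444 genes). Of the 33 genes 30 were bright enough to be tested, which puts 4 of 30 genes lower and 0 of 30 higher. Over all genes tested, 7.22% were lower and 8.02% were higher, or 15.2% in either direction, so the share of 13.3% among the 30 genes lies near that background and does not set them apart. At an unadjusted p below 0.05, 8 of the 30 genes were lower and 4 higher, or 40% in either direction, against 38.1% of all genes. The median difference of the 30 genes was -0.22, beside -0.12 for all genes.
The calls depend on the scaling: the authors' own value table gave 3 genes higher and 4 lower, and a repaired background correction, added after the data had been seen, gave 5 higher and 2 lower. Pdk4 and Vnn1 were lower in both. Over all genes, the authors' value table called 1041 of 12348 higher and 722 lower, or 14.3% in either direction. The repaired correction called 1406 of 12433 higher and 556 lower, or 15.8%.

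**Figure D1:**
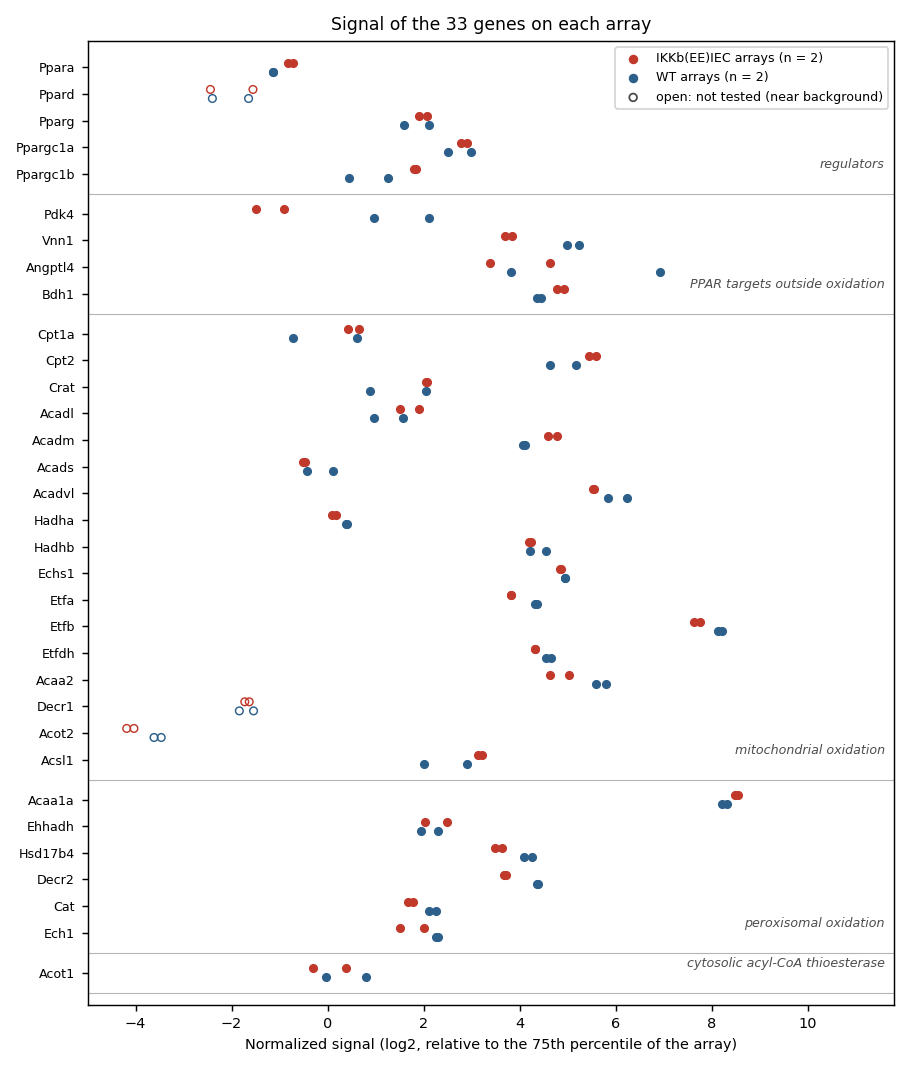
Normalized signal (log2, relative to the 75th percentile of the array, x axis) of each of the 33 genes on each array, with IKKb(EE)IEC in red above WT in blue and 2 points per genotype. Open points mark the 3 genes not tested. Pdk4, Vnn1, Acaa2 and Decr2 have both red points left of both blue ones, and Angptl4 is spread from 3.38 to 6.91.

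Ppara, the fatty acid receptor that drives oxidation in liver and gut, read -0.73 and -0.83 in IKKb(EE)IEC and -1.13 and -1.14 in WT. The genotypes did not overlap, but the probe was well above background on only 1 WT array and the difference of 0.36 ± 0.16 (SE) did not pass (limma adjusted p = 0.170). Pparg, the receptor best known from fat cells, gave 2.06 and 1.90 in IKKb(EE)IEC and 2.10 and 1.60 in WT, which overlap. Ppard, the most widely expressed PPAR, was not well above background on any array and so has no usable difference. Its readings were -1.56 and -2.44 in IKKb(EE)IEC and -2.40 and -1.65 in WT.

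The PGC-1 coactivators raise the activity of PPARs and of estrogen-related receptors on genes of mitochondrial metabolism. Ppargc1b gave 1.80 and 1.83 in IKKb(EE)IEC and 1.25 and 0.44 in WT, a difference of 0.97 ± 0.29 (limma adjusted p = 0.0761). Both IKKb(EE)IEC arrays were above both WT arrays, and WT replicate 2 was the lowest. A second probe of Ppargc1b was not well above background on WT replicate 2, so its difference is not given. Ppargc1b missed the threshold with all arrays and passed it as higher in 4 of 14 alternatives, among them the fits without WT replicate 1 and without WT replicate 2. Ppargc1a read 2.89 and 2.78 in IKKb(EE)IEC and 2.99 and 2.50 in WT, and its 2 probes differed in sign (0.09 and -0.44), so no direction can be given. Of the 4 regulators tested, 0 passed in limma, and 1, Ppargc1b, had an unadjusted p below 0.05.

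Pdk4 encodes a pyruvate dehydrogenase kinase that shuts off the entry of pyruvate into the citric acid cycle and so favours the burning of fat. It is a classic PPAR target. It read -1.48 and -0.90 in IKKb(EE)IEC and 0.97 and 2.11 in WT, the widest difference among the 30 genes tested. The genotypes did not overlap, and even the higher IKKb(EE)IEC array lay below the lower WT array by more than the gap between the IKKb(EE)IEC arrays. The difference was -2.73 ± 0.42 (limma adjusted p = 0.0183). Its size depended on the background treatment: it was -1.39 in the authors' value table, -1.51 after the repaired background correction and -1.23 in both planned forms of that correction, in which it did not pass. The probe lies on chromosome 6 at 5433441 to 5433500 (mm8), per the files. WT replicate 2, the array with liver markers, was the higher of the WT pair, and without it the difference was -2.16. Without IKKb(EE)IEC replicate 1 it did not pass (limma adjusted p = 0.0902, over alternatives that ranged from 1.13e-14 to 1). Among 5 other kinases and phosphatases of the same complex on the array, 4 were tested and 0 passed in limma, nor did any reach an unadjusted p below 0.05. Those with the smallest p were Pdpr, a regulatory subunit of the phosphatase, and Pdk1, at 0.25. Pdpr was well above background in IKKb(EE)IEC only, but its arrays overlapped. It read -0.87 and -1.28 in IKKb(EE)IEC and -1.08 and -3.11 in WT.

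The 250 bases before the start of Pdk4 (GRCm38.p6, chr6:5496279-5496528, minus strand, from RefSeq's gene start) are shown because Pdk4 differed most. They hold neither the PPAR response element AGGTCANAGGTCA nor its half-site AGGTCA on either strand, so no base is in capitals.
Pdk4: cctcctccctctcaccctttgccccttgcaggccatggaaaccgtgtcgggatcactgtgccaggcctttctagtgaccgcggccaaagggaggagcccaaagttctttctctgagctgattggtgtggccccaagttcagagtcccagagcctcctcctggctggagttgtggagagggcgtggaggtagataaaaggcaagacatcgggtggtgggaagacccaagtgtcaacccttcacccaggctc
Of all 32851 promoter windows in the RefSeq table, which reach from 250 bases before to 50 after a gene's start, 0.0396% held AGGTCANAGGTCA and 16.3% held AGGTCA. Among 30 windows of the 26 genes here that matched the table, 0 held AGGTCANAGGTCA, 0 held the looser form AGGNCANAGGNCA (0.381% of all windows) and 7 held AGGTCA, with both strands searched. A match or its absence describes these letters only.

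Vnn1 encodes pantetheinase, an enzyme on the cell surface that releases pantothenate and cysteamine and responds to PPARs in liver and gut. It gave 3.70 and 3.84 in IKKb(EE)IEC and 4.99 and 5.23 in WT. The arrays of each genotype lay close together and far from those of the other, and the difference was -1.34 ± 0.18 (limma adjusted p = 0.0134). Its probe lies on chromosome 10 at 23594134 to 23594193 (mm8). Without WT replicate 2 the difference was -1.22. Without IKKb(EE)IEC replicate 1 or 2 it was -1.27 and -1.41 and did not pass. Nor did it pass after either planned form of the background correction.

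Angptl4, a secreted inhibitor of lipoprotein lipase and one of the most responsive PPAR targets, differed between arrays of the same genotype more than any other of the 30 genes. It read 3.38 and 4.62 in IKKb(EE)IEC and 3.82 and 6.91 in WT. The genotypes overlapped, and the difference of -1.36 ± 1.02 did not pass (limma adjusted p = 0.358). It rests on WT replicate 2: without that array the difference was 0.18, and without WT replicate 1 it was -2.91. The part of the liver markers on WT replicate 2 in this value was not tested. Bdh1, which interconverts the ketone bodies acetoacetate and 3-hydroxybutyrate, was higher on both IKKb(EE)IEC arrays but did not pass, at 0.44 ± 0.17 (limma adjusted p = 0.121). In the authors' value table it passed as higher.

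**Figure D2:**
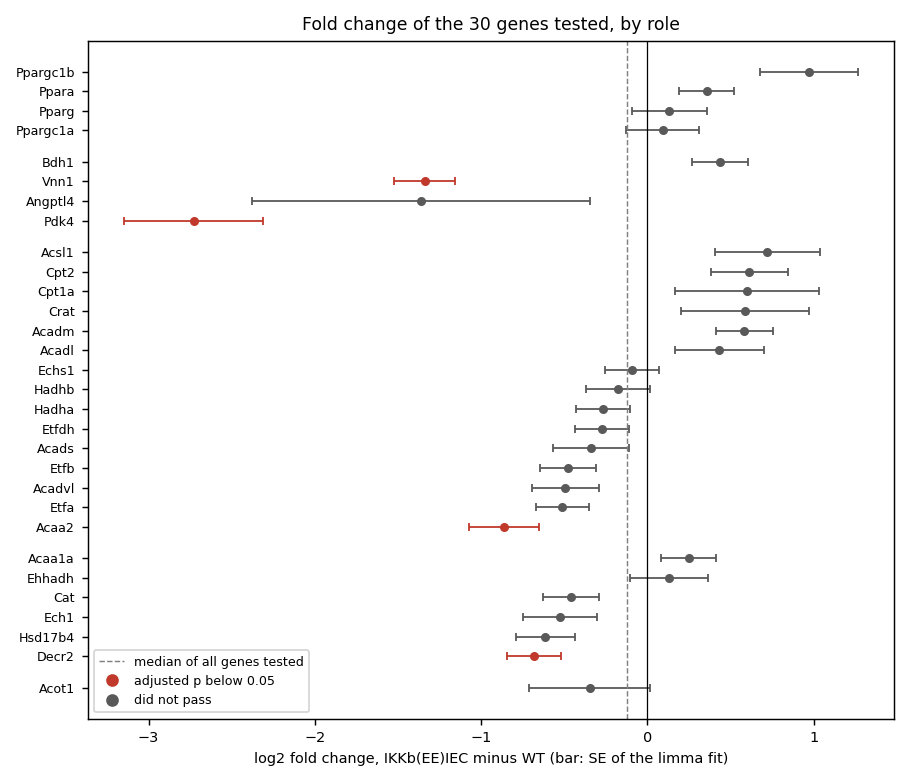
Difference of each of the 30 genes tested (log2, IKKb(EE)IEC minus WT, x axis), grouped from top to bottom as regulators, PPAR targets outside oxidation, mitochondrial, peroxisomal and cytosolic genes, with bars of 1 SE of the limma fit. Red points passed (Pdk4, Vnn1, Acaa2 and Decr2), and the dashed line is the median of all genes at -0.12.

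The 15 tested genes of mitochondrial oxidation did not move one way. In IKKb(EE)IEC 9 were below 0 and 6 above, with a median of -0.18, and 1 passed. Among the genes above 0, Acsl1, an acyl-CoA synthetase that activates fatty acids, was at 0.72, Cpt1a and Cpt2, the outer and inner carnitine palmitoyltransferases, at 0.60 and 0.61, and Crat, carnitine acetyltransferase, at 0.59. Acadl and Acadm, the long- and medium-chain acyl-CoA dehydrogenases, were at 0.43 and 0.58. None of these passed, the lowest adjusted p being that of Acadm (0.0726 in limma), whose readings were 4.58 and 4.77 in IKKb(EE)IEC and 4.11 and 4.07 in WT.

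Part of these readings turned on 1 WT array. Cpt1a gave 0.65 and 0.43 in IKKb(EE)IEC and 0.61 and -0.72 in WT. Crat gave 2.06 and 2.04 in IKKb(EE)IEC and 2.05 and 0.88 in WT. In both genes WT replicate 1 stood at the level of the IKKb(EE)IEC arrays and WT replicate 2 below it. Without WT replicate 2 the differences were -0.06 for Cpt1a and 0.003 for Crat, and without WT replicate 1 they were 1.26 and 1.17. The differences of Acsl1, Cpt2 and Acadl also shrank without WT replicate 2, to 0.27, 0.34 and 0.13. Without WT replicate 1 they were 1.17, 0.88 and 0.73. Acadm did not depend on WT replicate 2 in this way, at 0.56 without it and 0.60 without WT replicate 1.

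Of the 9 mitochondrial genes below 0, Acaa2 passed. Acaa2, a mitochondrial thiolase, read 4.62 and 5.03 in IKKb(EE)IEC and 5.79 and 5.59 in WT. The genotypes did not overlap and the difference of -0.86 ± 0.21 passed narrowly (limma adjusted p = 0.0495). Before the shift by the percentile they did overlap, with signals of 2334.2 and 3510.5 in IKKb(EE)IEC and 3326.8 and 3184.6 in WT. Its probe lies on chromosome 18 at 74931402 to 74931461 (mm8). It did not pass in 10 of 14 alternatives. It was lower in IKKb(EE)IEC in all 6 scaling alternatives, and the others could not turn its sign.

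Electron transfer flavoprotein and its oxidoreductase pass electrons from the acyl-CoA dehydrogenases to the respiratory chain. Their genes Etfa, Etfb and Etfdh were at -0.51, -0.48 and -0.27, with both IKKb(EE)IEC arrays below both WT arrays in each, but 0 of these 3 passed. Before the shift by the percentile, the arrays of Etfa and Etfb overlapped. The signals of Etfdh were then higher in IKKb(EE)IEC, at 1898 and 2153, beside 1506 and 1546 in WT. Etfa read 3.82 and 3.82 in IKKb(EE)IEC and 4.31 and 4.35 in WT, and it passed as lower in the authors' value table. Acadvl and Acads, the dehydrogenases for very long and short chains, were at -0.50 and -0.34. Hadha and Hadhb, the subunits of the mitochondrial trifunctional protein, were at -0.27 and -0.18, and Echs1, the short-chain enoyl-CoA hydratase, was at -0.09. The signs of Hadhb and Echs1 depended on the scaling: their highest values over the 6 scaling alternatives were 0.10 and 0.19. Decr1, a mitochondrial 2,4-dienoyl-CoA reductase, and Acot2, a mitochondrial thioesterase, were not tested, since Decr1 was well above background on 1 array only and Acot2 on none.

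Hadha and Hadhb lie head to head, with gene starts 273 bases apart (GRCm38.p6), so their promoter windows share 228 bases. The stretch is shown because this pair of genes, which encode 1 enzyme complex, has a promoter region in common. Its part in their differences was not tested. No part is marked.
Hadha and Hadhb, chr5:30155003-30155230, plus strand: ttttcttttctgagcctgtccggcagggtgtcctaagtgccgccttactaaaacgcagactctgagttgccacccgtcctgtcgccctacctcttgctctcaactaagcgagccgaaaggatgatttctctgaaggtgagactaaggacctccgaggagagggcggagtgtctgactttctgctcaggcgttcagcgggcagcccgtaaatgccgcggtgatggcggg

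Of the 6 genes of peroxisomal oxidation, 1 passed. Decr2, a peroxisomal 2,4-dienoyl-CoA reductase needed for polyunsaturated chains, read 3.71 and 3.67 in IKKb(EE)IEC and 4.39 and 4.36 in WT. The replicates lay within 0.04 of each other in each genotype, and the difference of -0.68 ± 0.16 passed narrowly (limma adjusted p = 0.0476). Before the shift by the percentile its signal was 1237 and 1371 in IKKb(EE)IEC and 1262 and 1354 in WT, so its difference is of the size of the shift itself. Among the alternatives on all 4 arrays, Decr2 passed only in the authors' value table, with a filter on all arrays and with the mean over probes. It was lower in all 6 scaling alternatives, and the others could not turn its sign. Its probe lies on chromosome 17 at 25809415 to 25809474 (mm8).

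The other peroxisomal genes were at -0.61 for Hsd17b4, the bifunctional hydratase and dehydrogenase of branched chains, at -0.53 for Ech1, a dienoyl-CoA isomerase, and at -0.46 for Cat, catalase, which removes the hydrogen peroxide of the first step. In each of these the IKKb(EE)IEC arrays lay below the WT arrays. Before the shift by the percentile, the arrays of Hsd17b4 and Ech1 overlapped. The signals of Cat were then higher in IKKb(EE)IEC, at 303 and 367, beside 288 and 286 in WT. Ehhadh, the bifunctional enzyme of straight chains and a strong PPAR target in rodent liver, was at 0.13 with overlapping arrays. Acaa1a, a peroxisomal thiolase, was at 0.25. Its other 2 probes gave -0.07 and 0.53, and one of them also lists the accession of its close copy Acaa1b, so its reading is uncertain. Acot1, the cytosolic thioesterase with a near-identical mitochondrial partner in Acot2, was at -0.35 with overlapping arrays. None of these passed, the lowest adjusted p being that of Hsd17b4 (0.0685 in limma).

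The 250 bases before the start of Decr2 (GRCm38.p6, chr17:26090165-26090414, minus strand) are shown because they hold a match to the NF-kB consensus, the motif of the factor that IKKb activates. The match is in capitals and reads the same on both strands.
Decr2: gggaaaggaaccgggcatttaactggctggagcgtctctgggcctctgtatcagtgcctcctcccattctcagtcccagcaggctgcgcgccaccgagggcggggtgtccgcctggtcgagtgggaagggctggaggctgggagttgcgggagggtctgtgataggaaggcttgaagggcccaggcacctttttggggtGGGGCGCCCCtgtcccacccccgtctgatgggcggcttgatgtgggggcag
The NF-kB consensus was found in 3 of the 30 windows, those of Cat, Etfa and Decr2, and in 8.46% of all windows. Such a match is not a binding site by itself.

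Whether or not a gene passed, both IKKb(EE)IEC arrays lay below both WT arrays for 14 of the 30 genes and above them for 7, which is 70% of them. Over all genes tested, 40.8% were separated downwards and 28.3% upwards, 69.1% in all. The spread between replicates differed between the genotypes. The median gap between the replicates of these genes was 0.12 in IKKb(EE)IEC and 0.295 in WT, against 0.149 and 0.29 over all genes. In WT 4 of the 30 genes (Pdk4, Angptl4, Cpt1a and Crat), or 13.3%, had replicates over 2-fold apart, against 5.26% of all genes, and in IKKb(EE)IEC only Angptl4 did. WT replicate 2 was the higher array for Pdk4 and Angptl4 and the lower one for Cpt1a and Crat.

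**Figure D3:**
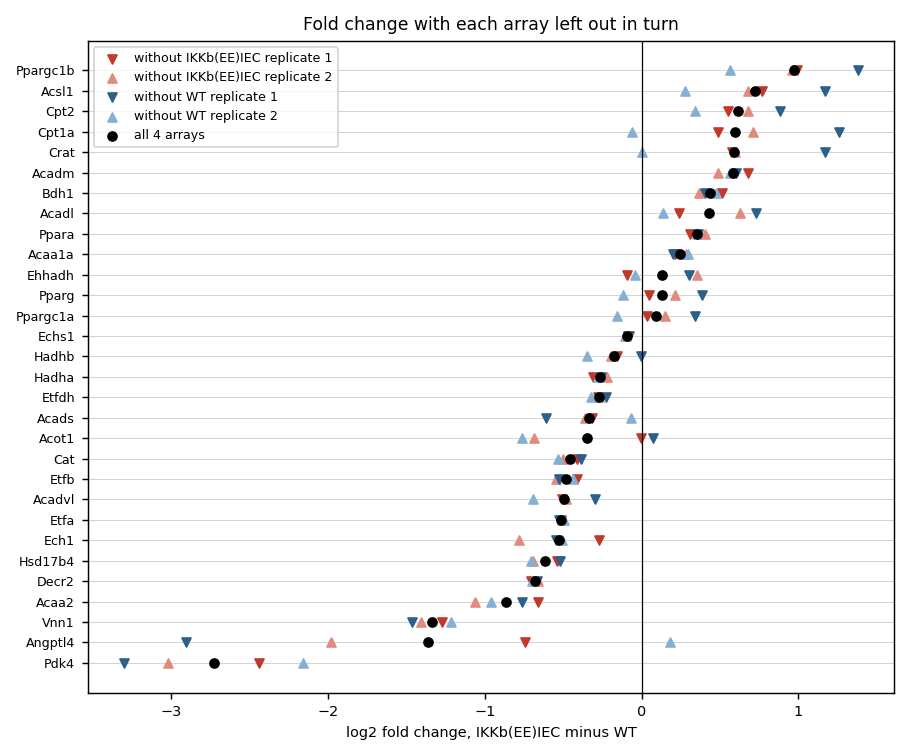
Difference of each of the 30 genes (log2, IKKb(EE)IEC minus WT, x axis) with all 4 arrays (black points) and with each array left out in turn (triangles, red tones for an IKKb(EE)IEC array and blue tones for a WT array). Angptl4 runs from -2.91 without WT replicate 1 to 0.18 without WT replicate 2, while Decr2 stays between -0.70 and -0.66.

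Leaving out WT replicate 2, the array with liver markers, gave 2 genes higher and 8 lower among the 30. The genes lower were Pdk4, Vnn1, Acadvl, Acaa2, Hsd17b4, Decr2, Cat and Acot1, and those higher were Ppargc1b and Acadm. Leaving out WT replicate 1 gave 7 higher and 9 lower. Leaving out IKKb(EE)IEC replicate 1 gave 0 lower, and leaving out IKKb(EE)IEC replicate 2 gave 1 lower, which was Pdk4. Over all genes the same omissions called 33.6% and 49.6% without WT replicate 2 and 1, and 1.99% and 2.66% without IKKb(EE)IEC replicate 1 and 2. In these fits the lone array of a genotype is assumed to vary like the pair of the other.

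Related genes, taken from lists by function, give the surroundings of these results. Of 26 tested further PPAR target genes, 9 were lower and 1 higher in IKKb(EE)IEC, beside 7.22% and 8.02% of all genes. The median of the list was -0.62, beside -0.12 for all genes. It was -0.22 in the authors' value table and -0.33 after the repaired background correction, beside -0.02 and -0.01 for all genes. Cd36, a fatty acid transporter of the cell membrane, was at -1.97 and -1.89 in IKKb(EE)IEC and 2.44 and 2.06 in WT, a difference of -4.18 ± 0.20 (limma adjusted p = 0.000883). It was well above background on only 1 IKKb(EE)IEC array, and its difference was -2.27 in the authors' value table and -2.40 after the repaired background correction. Aqp7, a glycerol channel, was at -1.33 and -1.57 in IKKb(EE)IEC and 3.57 and 1.30 in WT, a difference of -3.88 ± 0.71 (limma adjusted p = 0.0283). In the authors' value table it was -2.31 and did not pass, and it was -2.75 without WT replicate 1 and -5.02 without WT replicate 2. Both fell far below the WT arrays, and the WT readings of Aqp7 were themselves over 2 log2 units apart. Gk, glycerol kinase, and Fabp2, the intestinal fatty acid-binding protein, fell, with differences of -1.99 and -1.56. For Fabp2, quantile normalization gave -0.32, which did not pass (limma adjusted p = 0.375). Pnpla2, the adipose triglyceride lipase, was outside the rule for naming as the only gene of this list that was higher, and rose by 1.24. The list was drawn up with earlier results of these data known. Without WT replicate 2 its median was -0.63 and without WT replicate 1 it was -0.61, beside -0.07 and -0.17 for all genes. Without IKKb(EE)IEC replicate 1 and without IKKb(EE)IEC replicate 2, 1 and 2 were lower and 0 higher, and with no filter on dim probes 3 of 35 were lower.

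Over all genes tested 7.22% were lower and 8.02% higher, at a median of -0.12, and the counts below are to be read beside these shares. Of 29 tested further peroxisomal genes 4 fell and 0 rose, and the median was -0.31. They were Crot, which makes carnitine esters of shortened chains (-1.45), Slc27a2, a very long-chain acyl-CoA synthetase (-1.12), Scp2, a sterol carrier protein with thiolase activity (-1.01), and Pex5, the import receptor of peroxisomal enzymes (-0.73). Pex5 rests on 1 probe, since the mean over its probes gave -0.09, and it passed neither so nor in the authors' value table (-0.19). Of 23 further genes of mitochondrial oxidation and carnitine, Slc22a5, the carnitine transporter of the cell membrane, rose by 1.24, while Acot13, a thioesterase, and Pccb, a subunit of propionyl-CoA carboxylase, fell, with differences of -1.09 and -0.83. Pccb did not pass in the authors' value table (-0.35) or with the median shift. The median was -0.28. Of 5 tested ketone body genes, Bdh2 and Acat1, mitochondrial acetoacetyl-CoA thiolase, fell, with differences of -2.03 and -0.80. This list leaves out Bdh1, described above, which went the other way at 0.44 and did not pass. Bdh2 was at -1.10 in the authors' value table, where it did not pass, and at -1.42 without WT replicate 1. Acat1 did not pass with the median shift, quantile normalization, the repaired background correction or the replicate block.

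Of 24 tested partners and co-regulators of the PPARs, 3 rose and 2 fell, beside 8.02% and 7.22% of all genes. Their median was 0.27, beside -0.12 for all genes. Ncoa3, a steroid receptor coactivator, rose by 1.61, and by 0.74 as the mean over its probes, 0.79 in the authors' value table and 0.94 after the repaired background correction. Prkaa2, a catalytic subunit of AMP-activated kinase, was well above background on the IKKb(EE)IEC arrays only and was at least 2.02-fold higher in IKKb(EE)IEC (limma adjusted p = 0.0302), against a difference of 0.46 in the authors' value table. Hnf4g, a nuclear receptor of enterocyte genes, fell by 0.97. Esrra, a nuclear receptor of mitochondrial genes, was called lower at -0.70, but the mean over its probes was 0.21 and did not pass, so its direction depends on the probe. It did not pass with the median shift, quantile normalization or the repaired background correction either. A list of 26 tested genes was drawn on the respiratory chain, which receives the electrons of the spiral. It also holds Cs, citrate synthase, and the transcription factors Tfam, Nrf1 and Gabpa. In it 0 passed in limma, and 22 were below 0, beside 58% of all genes. At an unadjusted p below 0.05, 10 were lower, beside 21.6% of all genes. The median was -0.38, -0.07 in the authors' value table and -0.11 with quantile normalization, beside -0.12, -0.02 and -0.08 for all genes. Cox6c, a subunit of cytochrome c oxidase, was at -0.58. Without WT replicate 2 the medians were -0.48 for the respiratory chain list, -0.31 for the further peroxisomal and -0.35 for the further mitochondrial genes. They were -0.95 for the ketone body genes and 0.20 for the partners and co-regulators, beside -0.07 for all genes. Leaving out 1 of the IKKb(EE)IEC arrays, whichever it was, left each of these 5 lists with 0 calls. After the repaired background correction the medians were -0.03 for the further peroxisomal and -0.05 for the further mitochondrial genes, against -0.01 for all genes.

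**Figure D4:**
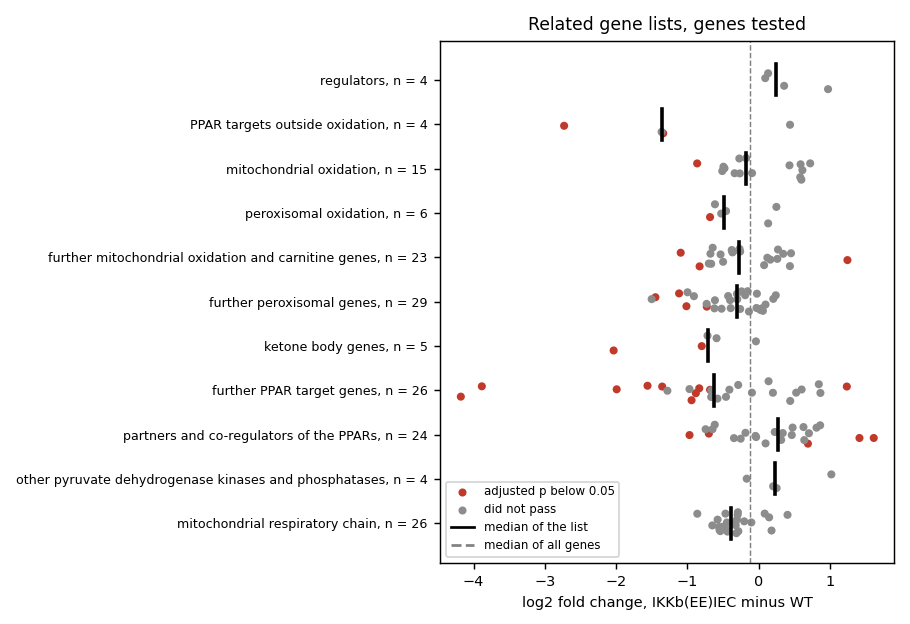
Difference of each tested gene (log2, IKKb(EE)IEC minus WT, x axis) in the groups described here and in the related lists, with red points for genes that passed, a black bar for the median of each list and a dashed line for the median of all genes (-0.12). The further PPAR targets reach to -4.18 for Cd36, while 0 of the 26 genes in the respiratory chain list passed.

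Among the cell type markers, those of macrophages and dendritic cells and of Paneth cells gave most of the calls. For the 8 macrophage and dendritic cell markers the summed linear signal was 24.8 and 19.5 in IKKb(EE)IEC and 7.75 and 8.09 in WT, in units of the array's 75th percentile, and 5 of 8 were higher. They included C1qc (at least 17.4-fold), Fcgr1 (at least 9.89-fold), Adgre1 (at least 3.88-fold) and C1qa (at least 1.67-fold). Each of these was well above background in IKKb(EE)IEC only, and so entered the test through the genotype where it is high. With a filter on all arrays 2 of the 8 markers were tested, 0 were higher and their median was 0.098. C1qb, Csf1r and Cd68 did not pass. C1qb read 2.22 and 2.12 in IKKb(EE)IEC and 2.36 and 2.27 in WT, and the arrays of Csf1r and Cd68 overlapped. The 4 Paneth cell markers on the array were all lower, with sums of 123 and 169 in IKKb(EE)IEC and 1331 and 1203 in WT. The sums of 7 liver markers were 125 and 115 in IKKb(EE)IEC and 167 and 210 in WT, and most of these came from Apoc3, which enterocytes also express. Alb, albumin, read -3.73 and -3.90 in IKKb(EE)IEC and -2.01 and 1.68 in WT, well above background on WT replicate 2 only. Of 8 adipocyte markers, 2 were well above background on both IKKb(EE)IEC arrays, 2 on WT replicate 1 and 4 on WT replicate 2, and 4 on no array, among them Adipoq and Fabp4. Of the 2 tested, Lep was lower, at -0.74. Their summed signal was 26.6 and 30.3 in IKKb(EE)IEC and 44.0 and 22.6 in WT. Of 9 markers of epithelium and absorptive enterocytes 2 were lower, Fabp2 and Lct, and their summed signal was 3719 and 3894 in IKKb(EE)IEC and 7928 and 10561 in WT. Most of that sum came from Fabp2, and without it the other 8 summed to 1145 and 1183 in IKKb(EE)IEC and 1424 and 1240 in WT, and the median difference over all 9 was 0.05. Of the T and NK cell, crypt and pancreas markers tested, 7, 5 and 1 in number, 0 passed in limma, and at an unadjusted p below 0.05 only 3 T and NK cell markers were lower and 1 crypt marker higher. Of 4 smooth muscle markers, 1, Myh11, was lower, at -0.72. The part of these cells in the differences of Pdk4, Vnn1, Acaa2 and Decr2 was not tested.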

How the data were processed

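Total RNA of 2 IKKb(EE)IEC and 2 WT samples (250 ng each, Cy3, per the labels' protocols) was hybridised to Agilent arrays of design 014868. Per the file headers, Feature Extraction 9.5.3.1 made the deposited spot intensities, which are background-subtracted, detrended processed signals with no normalization between arrays. The other columns used are flags of the spots, per the file headers. The authors' deposited value table holds linear intensities of 40913 probes with medians of 111.5 to 112 per array, so some normalization between arrays took place. The sources used here do not name it.

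From log2 of the processed signal, the 75th percentile of the array's 43379 non-control spots was subtracted. Non-uniform spots were dropped and a probe's remaining spots averaged. Probes with a signal well above background on at least 2 of 4 arrays were kept (16406 of 41174), and the brightest probe stood for its gene (12444 genes). The comparison used limma 3.58.1 (lmFit and eBayes, R 4.3.3), two-sided, with Benjamini-Hochberg adjustment over all these genes and an adjusted p below 0.05 as the threshold. Standard errors are those of the moderated fit. With 2 against 2 arrays no permutation of samples can reach 0.05, so none was run. Arrays give no counts, and their number limits the precision. For a probe at background on both arrays of 1 genotype, "at least N-fold" sets the other genotype's mean against the higher, per array, of its own value and the lowest value well above background.

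Names come from a GRCm38.p6 table for 24375 probes by accession and for 4648 by way of another probe that lists the same name, and from the files for 12151. Probe coordinates are those of the files (mm8), which do not give the exon. Promoters are RefSeq's (GRCm38.p6). All arrays lie on 1 slide, scanned together, with WT at positions 1 and 2 and IKKb(EE)IEC at positions 3 and 4, per the file headers, so position and genotype cannot be told apart and no slide block could be fitted.

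Values per array are given for genes past the threshold, for those whose arrays separate fully by at least 1 log2 unit, and for the regulators. From each related list up to 4 passing genes with the largest difference are named, or up to 2 with the smallest p. A gene taken by this rule is not reported here. Angptl4, Cpt1a, Crat, Acadm, Etfa, Pnpla2, Alb and the other genes with values outside this rule were picked after their values were seen. The genes and lists were chosen with earlier results of these data known. Alternatives tried were a shift by the array median, quantile normalization, normexp background correction, the authors' table, other filters, the mean over probes, each array left out and a block for the replicate number.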

Additional observations from a re-analysis of the deposited data

How the results depend on the processing

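The 4 genes that passed were lower in IKKb(EE)IEC under all 14 alternatives, but only the 6 scaling alternatives could have turned their sign. Each has 1 tested probe, so the other filters, the mean over probes and the replicate block left the value unchanged. Their arrays separate fully by genotype, so leaving 1 out cannot turn the sign. How many of the 30 genes passed moved with the setting. Genes higher numbered 1 with the shift by the array median, 3 in the authors' table and 5 after the repaired normexp correction (added after the data had been seen), against 0, and 0 to 7 with one array left out. Genes lower numbered 2 with quantile normalization, with the repaired normexp correction, with no filter on dim probes and with a replicate block, and 0 with either planned normexp fit (saddle or mle), against 4, and 0 to 9 with one array left out. The median of the 30 genes was -0.10 in the authors' table and 0.014 after the repaired normexp correction, against -0.22, and -0.21 to -0.045 with one array left out. The median of all genes moved from -0.12 to -0.01 after the repaired correction and to -0.45 with no filter, so the median of the 30 genes is to be read beside it. Over all genes tested, genes higher made up 52.6% of the calls, 63.2% with the median shift, 59% in the authors' table, 71.7% after the repaired correction and 40% with a filter on all arrays.

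The planned normexp fits called 0 of 12433 genes. On IKKb(EE)IEC replicate 2 and WT replicate 1, 4 spots each had a background above their signal, and setting those to the array's median background gave the repaired form. Counts over all genes were 998 higher and 898 lower, 911 and 588 with the replicate block, 501 and 342 with no filter, 771 and 1157 with the filter on all arrays, 2633 and 3541 when WT replicate 1 was left out, 1915 and 2268 when it was WT replicate 2, 165 and 83 when it was IKKb(EE)IEC replicate 1, and 225 and 106 when it was IKKb(EE)IEC replicate 2. Same-numbered arrays deviated together with a correlation of 0.108 across genes in only 2 pairs, which does not show that the numbers pair the samples. Pdk4 and Vnn1 passed with the replicate block and Acaa2 and Decr2 did not. Of 30 genes, 22 kept their sign in every alternative. Dim probes such as those of Ppard, Decr1 and Acot2 allow no statement.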
